A study of Mus musculus with 9 samples.

Results

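The receptors of anti-Müllerian hormone, the bone morphogenetic proteins and the activins were followed in mouse hepatic stellate cells through 10 genes: Amhr2, Bmpr1a, Bmpr1b, Bmpr2, Acvr1, Acvr1b, Acvr1c, Acvr2a, Acvr2b and Acvrl1. They were found on the arrays by gene name, which gave 22 of the 56605 probes that are not controls. All 10 genes were among the 23965 genes with a usable probe, through 20 of the 22 probes. Amhr2 was selected on its measured signal, which was lower after an siRNA against Cav1, so its difference between the siRNA groups is described here and not tested. The other 9 genes complete the receptor family.

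Stellate cells are the retinoid-storing pericytes of the liver, which become contractile, collagen-producing myofibroblasts when cultured on hard plastic. Single-colour Agilent arrays measured primary cells of C57BL/6 mice aged 10 weeks in 3 groups of 3 samples. The quiescent group (qhsc) had no treatment and no stated time of harvest. The negative control group (nc) was activated by 7 days of culture on a hard plate and then transfected overnight with a control siRNA at 5 nM, and the Cav1 group (si-cav) was handled alike with an siRNA that targets Cav1 (caveolin-1, a coat protein of caveolae). Nothing in the labels ties the samples of a group to separate animals or cultures, so p-values here reflect the spread between samples, part of which may be technical. The targeted gene followed the labels: its log2 signal relative to the array's 75th percentile was -1.34, -1.12 and -1.09 in control-siRNA cells and -2.87, -2.89 and -3.07 in Cav1-siRNA cells, against -4.87, -5.65 and -5.84 in quiescent cells, where 1 array was above background. The activated groups differ from the quiescent group in culture and transfection together, and no quiescent sample was transfected.

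Ligands of this family are dimers that bring together a type II and a type I receptor, both of which are transmembrane serine/threonine kinases. The type II receptor phosphorylates the type I receptor, which then phosphorylates a receptor SMAD that enters the nucleus with Smad4. Amhr2 is the type II receptor for anti-Müllerian hormone, Bmpr2 mainly serves BMPs, and Acvr2a and Acvr2b serve activins, several BMPs and related ligands. Among type I receptors, Bmpr1a, Bmpr1b, Acvr1 and Acvrl1 signal through SMAD1, SMAD5 and SMAD9, and Acvr1b and Acvr1c through SMAD2 and SMAD3. In the liver, BMP signalling is best known for control of the iron hormone hepcidin, and Amhr2 is best known from the gonads and the mesenchyme around the Müllerian duct.

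The Amhr2 result turns on 3 array probes of 60 bases, all designed against the same RefSeq transcript and on the plus strand of chromosome 15, build mm9. Probe 1 lies at chr15:102284930-102284989, probe 2 at chr15:102284669-102284728 and probe 3 at chr15:102276769-102276828. Their sequences are shown because these stretches of the transcript are all that the arrays report of Amhr2. Probe 1 is given by its first 30 bases.
Amhr2 probe 1: atgagtagcttgtttgaactctctgtacag
Amhr2 probe 2: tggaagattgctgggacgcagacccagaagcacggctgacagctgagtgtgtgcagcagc
Amhr2 probe 3: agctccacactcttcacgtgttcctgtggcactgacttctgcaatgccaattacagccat
Probes 1 and 2 lie close together and probe 3 lies upstream of them. Which exons or untranslated stretches they fall in was not analysed here, because no annotation of build mm9 was used.

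Amhr2 was highest in control-siRNA cells and lowest in Cav1-siRNA cells. By probe 1, its log2 signal, on the same scale as all values below, was -3.13, -3.20 and -2.83 in quiescent cells. It was -2.11, -2.43 and -2.46 in control-siRNA cells and -3.59, -3.66 and -3.74 in Cav1-siRNA cells. The 3 groups did not overlap, and the probe was above background on all 9 arrays. Before scaling, the deposited intensities were 41.3, 42.9 and 54.4 in quiescent cells, 118, 137 and 125 in control-siRNA cells, and 44.5, 51.9 and 51.4 in Cav1-siRNA cells. On that unscaled scale the quiescent and Cav1-siRNA arrays overlapped, so their order came with the scaling.

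The Amhr2 mean by probe 1 was -2.33 ± 0.19 (SD, n = 3) with the control siRNA and -3.66 ± 0.07 (SD, n = 3) with the Cav1 siRNA. The difference was -1.33, with a 95% interval of -1.69 to -0.97 that is a description, since this difference chose the gene. Ordered from the most lowered, Amhr2 stood at place 83 of 23965 genes. Correcting the background by normexp, a model of signal plus noise, gave a smaller difference of -0.74. Within slide 2, which carried control-siRNA arrays 2 and 3 and all Cav1-siRNA arrays, the difference was -1.22.

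Against quiescent cells, the Amhr2 signal rose in control-siRNA cells by 0.72 (SE 0.16, adjusted p = 0.0032, limma) and was lower in Cav1-siRNA cells by this fit, at -0.61 (SE 0.16, adjusted p = 0.0075, limma). Both comparisons use arrays on which Amhr2 was picked, so neither p is independent of that choice. The rise became +0.09 (adjusted p = 0.61, limma) under normexp with the 75th percentile. Within slide 1 the rise was +0.94, but that slide held 1 control-siRNA array, so the spread of its group cannot be judged there. The lower level in Cav1-siRNA cells became -0.35 under median scaling (adjusted p = 0.21, limma) and -0.28 with the slide as a block (adjusted p = 0.44, limma).

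The other Amhr2 probes gave less. Probe 2 read -5.78, -5.43 and -5.10 in quiescent cells, -5.04 to -4.92 in control-siRNA cells, and -6.05, -5.55 and -6.08 in Cav1-siRNA cells. It was above background on 3 control-siRNA arrays but on 1 array of each other group. Its control-siRNA arrays lay above the others, and its quiescent and Cav1-siRNA arrays overlapped. Probe 2 was kept as usable only through the control-siRNA group, so this order is no separate support for probe 1. The difference between the siRNA groups was -0.91 by probe 2, a size that rests in part on Cav1-siRNA readings not above background. Probe 3 was not above background on any of the 9 arrays and was not tested. Its values ran from -8.30 to -6.23 with no separation of the groups.

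**Figure D1:**
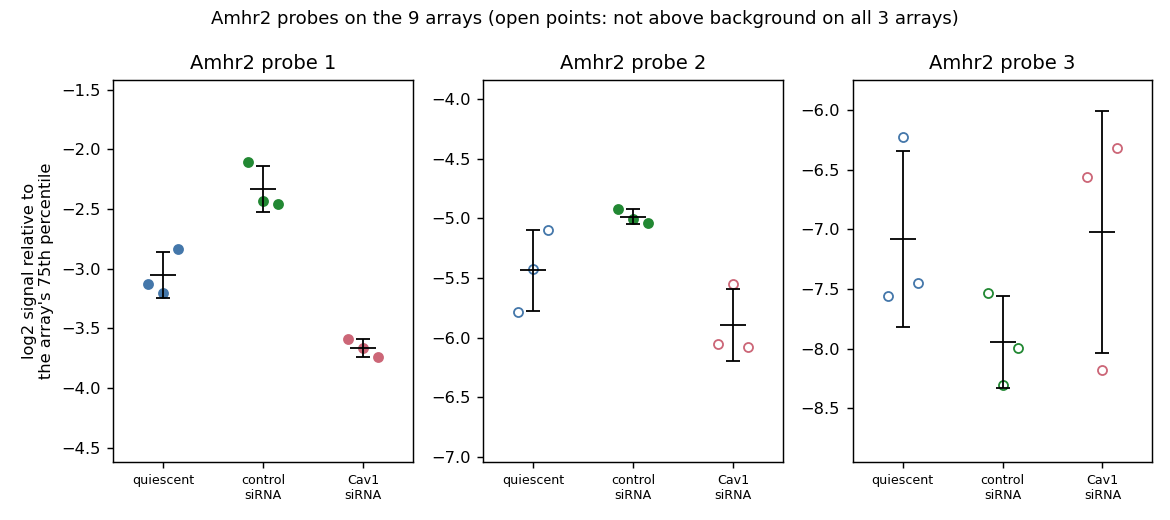
Log2 signal of the 3 Amhr2 probes relative to the array's 75th percentile (vertical axis) on 3 quiescent, 3 control-siRNA and 3 Cav1-siRNA arrays. Points are arrays, bars the mean and SD, and open points mark groups in which the probe was not above background on all 3 arrays. By probe 1 the control-siRNA arrays lie between -2.46 and -2.11 and the Cav1-siRNA arrays between -3.74 and -3.59.

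Mesothelial markers are given beside Amhr2 because their summed signal, like Amhr2, read highest with the control siRNA, although it read lowest in quiescent cells and Amhr2 with the Cav1 siRNA. The log2 of the summed signal of 7 mesothelial markers was 0.28 to 1.00 in quiescent cells, 4.93 to 4.97 in control-siRNA cells and 4.62 to 4.74 in Cav1-siRNA cells. Of the 7 markers, 6 were called higher on activation and Krt19 lower, against 42.1% and 26.0% of all genes with the control siRNA. After the Cav1 siRNA, 7 of 7 had a negative difference from the control siRNA, as did 56.8% of all genes. None passed the adjusted test, and 2 had an unadjusted p under 0.05 (4.96% of all genes). Of 4 measured markers of gonadal and urogenital mesenchyme, 1 was called higher on activation with either siRNA (42.1% and 40.4% of all genes). This was Osr2, named after its values were seen, which was not above background on any quiescent array and allowed no lower bound. Of the others, Gata4 read +2.83, +2.60 and +2.59 and Nr5a1 -2.73, -2.63 and -3.07 as group means in quiescent, control-siRNA and Cav1-siRNA cells, and neither passed the test in any comparison. The mesothelial marker Wt1 was 7.07 higher on activation (SE 0.15, adjusted p = 1.9e-09, limma) and differed by -0.11 between the siRNA groups. The part of mesothelial cells in the Amhr2 signal was not tested.

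The genes whose pattern over the 9 arrays was most like Amhr2 were Nprl3 (Pearson r = 0.975), Gpalpp1 (0.960), Fbxo2 (0.947), Snx27 (0.915) and a transcript listed as NAP068456-1 (0.901), out of 23964 genes compared. These correlations over 9 arrays of 3 groups are a description. The Nprl3 signal was 0.99, 0.81 and 1.12 in quiescent cells, 1.55, 1.49 and 1.46 in control-siRNA cells, and 0.24, 0.37 and 0.40 in Cav1-siRNA cells. As with Amhr2, its groups did not overlap, but it was picked for its likeness to Amhr2. The differences between the siRNA groups were -1.16 for Nprl3, -0.89 for Gpalpp1, -0.66 for Fbxo2, -0.56 for Snx27 and -0.44 for NAP068456-1.

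By their brightest probes the remaining type II receptors changed by less than 1 on the log2 scale, but the other probes of Bmpr2 gave larger changes of opposite sign. By its brightest probe, Bmpr2 read 2.38, 3.07 and 2.55 in quiescent cells, 2.96, 3.15 and 3.05 in control-siRNA cells, and 3.17, 3.13 and 3.16 in Cav1-siRNA cells. Quiescent array 2 lay within the control-siRNA range. The change on activation was +0.39 (SE 0.18, adjusted p = 0.091, limma). In Cav1-siRNA cells Bmpr2 was 0.49 above quiescent cells (adjusted p = 0.042, limma), a call that was lost under 15 of 24 alternatives.

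The Bmpr2 probes are shown by their last 30 bases, with runs of 3 or more A in capitals, because probes 2 and 3 end in such runs and gave opposite changes. Probe 1 lies at chr1:59934262-59934321, probe 2 at chr1:59912789-59912848 and probe 3 at chr1:59907509-59907567, all on the plus strand of mm9. Probes 2 and 3 were designed against separate Ensembl transcripts of the gene.
Bmpr2 probe 1: tctatgaataagtgtaagtAAAtgctttga
Bmpr2 probe 2: ccctcaagtgaatAAAAtAAAAtatAAAAA
Bmpr2 probe 3: ctgatttacgtgAAAccctgtctgAAAAAA
Probe 2 rose on activation by 2.18 (SE 0.39, adjusted p = 0.00089, limma). It read -3.23, -2.49 and -3.04 in quiescent cells and -1.41, -0.78 and -0.03 in control-siRNA cells. Probe 3 went the other way, from -1.18, -0.56 and -1.48 to -2.55, -2.70 and -2.85, a change of -1.62 (SE 0.23, adjusted p = 0.00018, limma). The groups did not overlap by either probe, so the arrays give no single direction for Bmpr2.

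Acvr2a, an activin type II receptor, ran from -2.20 to -1.35 in quiescent cells and from -1.85 to -1.81 in control-siRNA cells, with a change of -0.08 (95% interval -0.56 to 0.39, adjusted p = 0.74, limma). Its second probe gave +0.02. A further Acvr2a probe, designed against a liver tumour cDNA, was above background on 2 arrays of each group and was not tested. Acvr2b read -0.10, 0.14 and 0.45 in quiescent cells and -0.21, -0.09 and -0.17 in control-siRNA cells, a change of -0.32 (adjusted p = 0.10, limma). Its second probe fell by 0.41 (adjusted p = 0.026, limma). Against quiescent cells, Acvr2b in Cav1-siRNA cells was at -0.42 (adjusted p = 0.040, limma), a call lost under 15 of 23 alternatives.

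Among the type I receptors, on activation Bmpr1a rose, Bmpr1b went from below to above background and Acvrl1 fell, each by more than the spread of the arrays. Bmpr1a read 0.03, 0.17 and 1.07 in quiescent cells, 3.76, 3.35 and 3.41 in control-siRNA cells, and 3.60, 3.68 and 3.50 in Cav1-siRNA cells. All activated arrays lay above all quiescent arrays, and the siRNA groups overlapped. The rise was 3.09 (SE 0.26, adjusted p = 7.1e-06, limma), or 8.49-fold, and probe 2 rose by 2.24.

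Bmpr1b, a close relative of Bmpr1a, was not well above background on any quiescent array and was above background on all 6 activated arrays. Its signal was -1.38, -1.52 and -1.42 with the control siRNA and -1.55, -1.47 and -1.34 with the Cav1 siRNA. Its levels in the siRNA groups overlapped. Set against the dimmest signal that each quiescent array still called above background, it was at least 11.5-fold higher in control-siRNA cells and at least 11.4-fold higher in Cav1-siRNA cells. The test with the control siRNA (adjusted p = 4.3e-07, limma) used the quiescent readings below background and did not test these bounds. These bounds hold for the scanner's processed signals: under normexp the log2 change was +1.85 with the 75th percentile and +2.29 with quantile normalization in control-siRNA cells, and +1.78 and +2.24 in Cav1-siRNA cells.

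Acvr1, the type I receptor ALK2, rose from 2.10, 3.03 and 2.35 in quiescent cells to 3.54, 3.40 and 3.38 in control-siRNA cells. Quiescent array 2 was the highest of its group and still below all control-siRNA arrays. The change was +0.95 (SE 0.22, adjusted p = 0.0045, limma) by probe 1 and +1.05 by probe 2. Within slide 1, which held 1 control-siRNA array, it was +1.04. Probe 3 of Acvr1, for another transcript, was not above background in quiescent cells and was at least 1.57-fold higher in control-siRNA cells. In Cav1-siRNA cells Acvr1 read 3.16, 3.28 and 3.23, and the change against quiescent cells was +0.73 (adjusted p = 0.017, limma). That call was lost with the slide as a block (adjusted p = 0.14, limma) and without si-cav replicate 2 (adjusted p = 0.051, limma).

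Acvrl1, the type I receptor ALK1 known mainly from endothelial cells, fell. Its first probe (chr15:100974010-100974069, plus strand, mm9) was designed against transcript variant 5 and its second against variant 1, and they are shown because both gave the fall. The second spans chr15:100967514-100967806 on the genome, which is longer than the probe's 60 bases. Probe 1 is given by its last 30 bases.
Acvrl1 probe 1: ccagccaaaaatacagctgagctgaaattc
Acvrl1 probe 2: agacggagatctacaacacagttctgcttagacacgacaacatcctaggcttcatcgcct
By probe 1, Acvrl1 read 0.73, 0.54 and 0.39 in quiescent cells, -3.46, -3.61 and -3.60 in control-siRNA cells, and -3.61, -3.94 and -3.70 in Cav1-siRNA cells. The fall was 4.11 on the log2 scale with the control siRNA (SE 0.15, adjusted p = 3.1e-08, limma), a level 17.3-fold lower. Under normexp it was smaller, at -3.23 with the 75th percentile and -3.15 with quantile normalization. Probe 2 was not above background in either activated group and was at least 16.1-fold lower in control-siRNA cells.

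Endothelial markers fell with Acvrl1. The log2 of the summed signal of 12 endothelial markers was 8.36 to 9.10 on quiescent arrays, -0.62 to -0.53 on control-siRNA arrays and -0.80 to -0.65 on Cav1-siRNA arrays. All 12 were called lower on activation with either siRNA, against 26.0% of all genes with the control siRNA and 27.2% with the Cav1 siRNA. Cdh5, Emcn, Erg, Tek and Tie1 were not above background on any activated array. The part of endothelial cells in the Acvrl1 signal was not tested. In bulk samples, fewer cells of a type and less RNA per cell cannot be told apart.

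Acvr1b, the type I receptor ALK4 for activins, read 0.34, 0.72 and 0.60 in quiescent cells, 0.64, 0.26 and 0.25 in control-siRNA cells, and 0.16, 0.40 and 0.30 in Cav1-siRNA cells. The groups overlapped, and the change on activation was -0.17 (95% interval -0.55 to 0.21, adjusted p = 0.39, limma). Acvr1c, the related receptor ALK7, was not above background on any quiescent array and stayed dim in the activated groups, at -5.21, -5.34 and -4.38 and at -5.17, -4.89 and -5.48. Its control-siRNA arrays passed the test (adjusted p = 0.021, limma). No lower bound above 1 could be set, and under normexp with the 75th percentile the change was -0.38 (adjusted p = 0.029, limma), so no direction is given for Acvr1c.

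**Figure D2:**
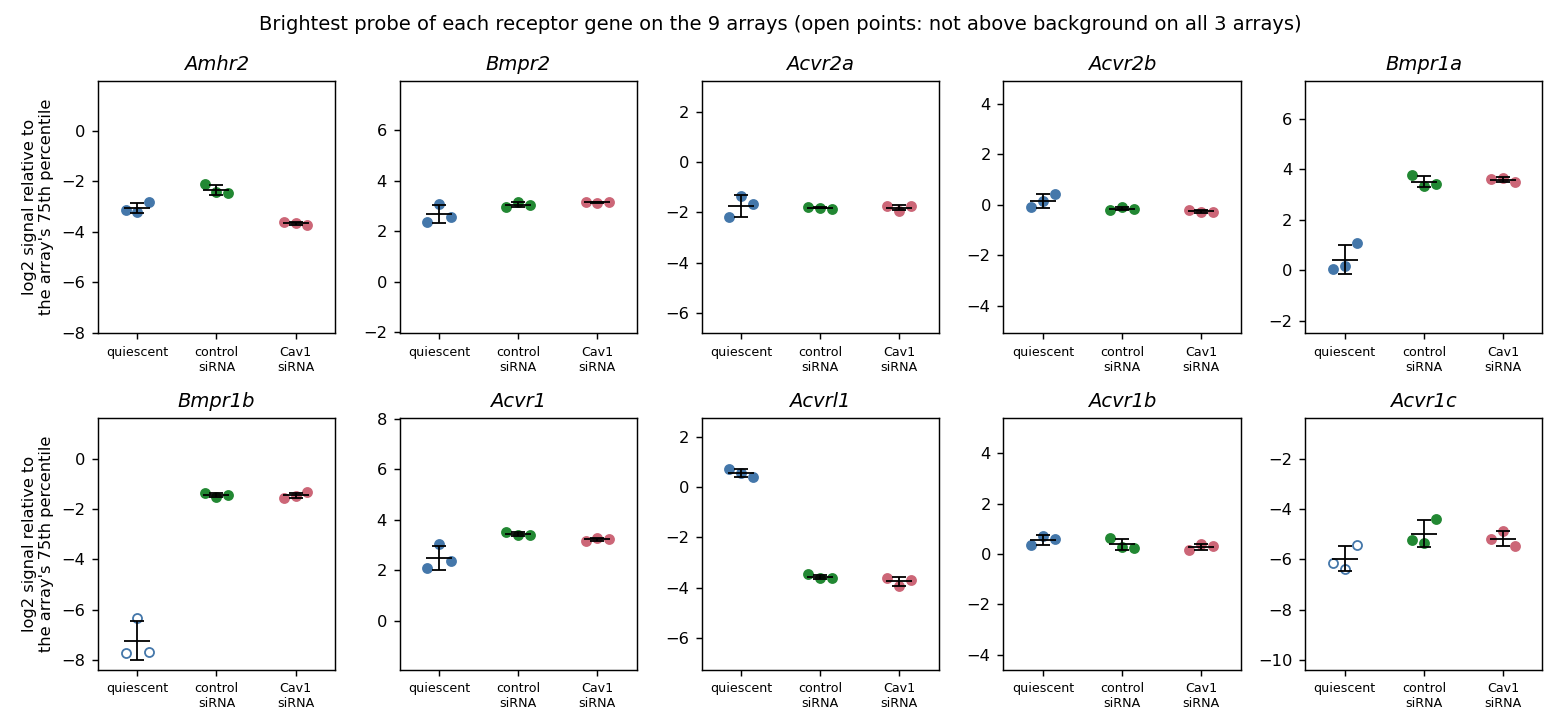
Log2 signal of the brightest probe of each of the 10 receptor genes relative to the array's 75th percentile (vertical axes of equal span) in quiescent, control-siRNA and Cav1-siRNA cells. Points are arrays, bars the mean and SD of 3 arrays, and open points mark groups in which the probe was not above background on all 3 arrays. Bmpr1a, Bmpr1b and Acvr1 lie higher and Acvrl1 lower in both activated groups, and for Amhr2 the activated groups lie on either side of the quiescent arrays.

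Across the family, 6 of 10 genes were called between control-siRNA and quiescent cells at an adjusted p under 0.05, against 68.1% of all genes tested. By this fit 5 were higher (42.1% of all genes were called higher): Amhr2, Bmpr1a, Bmpr1b, Acvr1 and Acvr1c, the last with a sign that turned under normexp with the 75th percentile. Acvrl1 was lower (26.0% of all genes). These counts include Amhr2, which was selected on the control-siRNA arrays, and without it 5 of 9 were called. The share among receptors is near that among all genes. The median change was +0.55 over the 10 receptors, +0.39 without Amhr2 and +0.32 over all genes, and under normexp with the 75th percentile the median of all genes was -0.12. Of all calls, 61.8% were higher by the main scaling and 46.2% under normexp with the 75th percentile.

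Between Cav1-siRNA and quiescent cells, 7 of 10 receptors were called against 67.6% of all genes. By the brightest probe, Bmpr1a, Bmpr1b, Acvr1 and Bmpr2 were higher (40.4% of all genes) and Amhr2, Acvr2b and Acvrl1 lower (27.2% of all genes). For Bmpr2, probe 2 gave +1.87 and probe 3 -1.44, so its direction is that of the brightest probe alone. Without Amhr2, 6 of 9 were called. This comparison shares the quiescent arrays with the former, and no slide carried both of its groups. With the slide as a block, 3 of the 10 were called, as were 10141 of all 23965 genes.

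**Figure D3:**
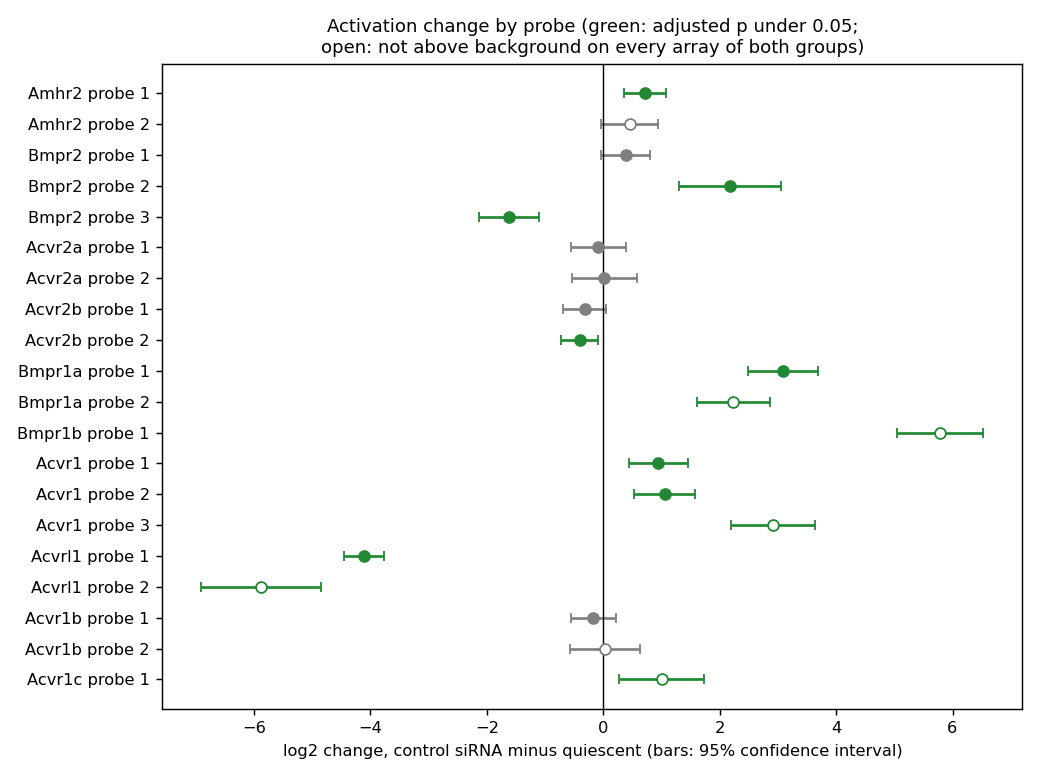
Change in log2 signal from quiescent to control-siRNA cells (horizontal axis) for the 20 tested probes of the 10 receptor genes, with 95% confidence intervals. Green marks an adjusted p under 0.05, and open points mark probes that missed background on some array of either group, whose size depends on the background. The Bmpr2 probes lie on both sides of 0, at +0.39, +2.18 and -1.62, while the tested probes of Bmpr1a, Acvr1 and Acvrl1 each lie on the same side as the others of the gene.

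By the main limma fit no gene was called between the siRNA groups. Some alternatives did call genes, among them 7 under normexp with the 75th percentile and 656 with array weights. A fit of the siRNA groups alone called 19. Amhr2, which was selected on this comparison, is described above without a test. Cav1 itself was 3.40-fold lower, with an adjusted p of 0.14 (limma) over all genes. With 3 arrays a group, 0 of 23965 genes were called in this comparison by the main fit (0%), and 1189 genes (4.96%) had an unadjusted p under 0.05. Of the other 9 receptors, 0 were called and 0 had an unadjusted p under 0.05. Their differences ran from -0.22 for Acvr1 to +0.10 for Bmpr2. Their 95% intervals reached down to -0.94 (Acvr1c) and up to 0.72 (Bmpr1b). These ends are not limits of detection, since Cav1 itself was not called.

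For Bmpr1a the interval of the difference between the siRNA groups was -0.52 to 0.68, and for Acvrl1 -0.53 to 0.15. The Acvr1 arrays of the siRNA groups did not overlap, at 3.16 to 3.28 against 3.38 to 3.54. That was the case for 1 of these 9 receptors and for 22.6% of all genes. The difference in Acvr1, -0.22, did not pass the test (SE 0.22, adjusted p = 0.9998, limma).

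The rest of the pathway was read from 5 lists of 75 genes, of which 66 were measured. On activation with the control siRNA, 29 were called higher and 22 lower (42.1% and 26.0% of all genes). With the Cav1 siRNA these were 28 and 22 (40.4% and 27.2% of all genes). In all, 51 and 50 of the 66 were called, against 68.1% and 67.6% of all genes. The lists were chosen with earlier results of these data known, so these counts are a description. The median change of the 66 genes was +0.17 and +0.06 against +0.32 and +0.27 over all genes. The gene of anti-Müllerian hormone, Amh, had no probe that passed the filter on dim probes.

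Among 21 measured ligands, 8 were called higher and 8 lower on activation with the control siRNA (42.1% and 26.0% of all genes). Of the higher ones, the dim Bmp10 and Gdf7 turned to -0.26 and -0.16 under normexp with the 75th percentile. Bmp2, a BMP that endothelial cells of the liver release, was at least 1346-fold lower in control-siRNA cells. This bound and those that follow hold for the scanner's processed signals. Bmp7 was at least 25.3-fold lower, and Inhbc, an inhibin chain made by hepatocytes, was at least 29.7-fold lower. Gdf6, a BMP of the growth and differentiation factor branch, rose by 6.50 (SE 0.85, adjusted p = 0.00013, limma) and was above background on 1 quiescent array. In Cav1-siRNA cells Bmp5 was at least 91.6-fold below quiescent cells. The log2 summed signal of 9 hepatocyte markers also fell, from 9.82 to 10.1 in quiescent cells to -2.96 to -2.67 in control-siRNA cells. All 9 hepatocyte markers were called lower, as were 10 of 10 macrophage markers, against 26.0% of all genes. Their part in the fall of ligands was not tested.

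Of 12 TGF-beta receptors and co-receptors, 5 were called higher and 3 lower (42.1% and 26.0% of all genes). Eng, the endothelial co-receptor endoglin that acts with Acvrl1, read 2.96, 3.82 and 2.35 in quiescent cells and -1.87, -1.92 and -1.95 in control-siRNA cells, a fall of 4.95 (adjusted p = 9.1e-07, limma). Hjv, the co-receptor of BMPs in iron control, was at least 17.3-fold lower. Neo1, the neogenin receptor of the repulsive guidance molecules, rose by 5.55 and Rgmb by 2.02. Tgfbr1 rose by 1.74 (adjusted p = 3.0e-06, limma), and Tgfbr2 changed by +0.28 (adjusted p = 0.24, limma).

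Secreted antagonists were called higher in 6 and lower in 3 of 11 (42.1% and 26.0% of all genes). Among the higher, the dim Chrdl2 turned to -0.23 under normexp with the 75th percentile. Grem1, which binds BMPs, was not above background in quiescent cells, at 5.53, 5.31 and 5.38 in control-siRNA cells and at 5.75, 5.80 and 5.70 in Cav1-siRNA cells. By the scanner's processed signals, its control-siRNA level was at least 1328-fold higher than in quiescent cells. Bmper rose by 7.76 (SE 0.66), the activin-binding follistatin Fst by 5.08 (SE 0.47) and Nbl1 by 4.22 (SE 0.22).

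SMADs and their regulators were called higher in 7 and lower in 2 of 12 (42.1% and 26.0% of all genes). The BMP-side Smad5 rose by 1.13 and Smad9 by 1.09, while Smad1 fell by 0.43 (adjusted p = 0.043, limma), a call lost under median scaling (adjusted p = 0.30, limma) and under normexp with the 75th percentile (adjusted p = 0.16, limma). The activin-side Smad3 rose by 1.52, the shared Smad4 by 0.48, the ubiquitin ligase Smurf1 by 1.53 and the inhibitory Smad7 by 0.93. Smad6, also inhibitory, changed by +0.20 (adjusted p = 0.52, limma).

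BMP target genes were called higher in 3 and lower in 6 of 10 (42.1% and 26.0% of all genes). Id1 read 2.75, 3.44 and 3.26 in quiescent cells and 4.64, 4.44 and 4.46 in control-siRNA cells, a rise of 1.36 (SE 0.19, adjusted p = 0.00018, limma). Id2 fell by 1.67 and Id4 by 1.84, while Id3 changed by +0.23 (adjusted p = 0.16, limma), so the Id genes did not move in one direction. Hamp, the hepatocyte gene of hepcidin, was at least 1806-fold lower, Hamp2 fell by 9.51 and Hey1 by 3.39. Msx1, a homeobox gene, rose by 4.54. Hepatocyte markers fell with Hamp, as given above.

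Between the siRNA groups 0 of the 66 pathway genes were called, and 5 had an unadjusted p under 0.05, against 4.96% of all genes. These were Bmp10, Bmp5, Hey1, Smad2 and Smurf1, named after their values were seen. With limma's array weights 656 genes were called in all, among them Bmp10 (-0.91), Bmp8a (-0.63) and Smurf1 (-0.44). The differences by the main fit were -0.08 for Id1, +0.03 for Id2, 0.00 for Id3 and -0.29 for Id4.

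**Figure D4:**
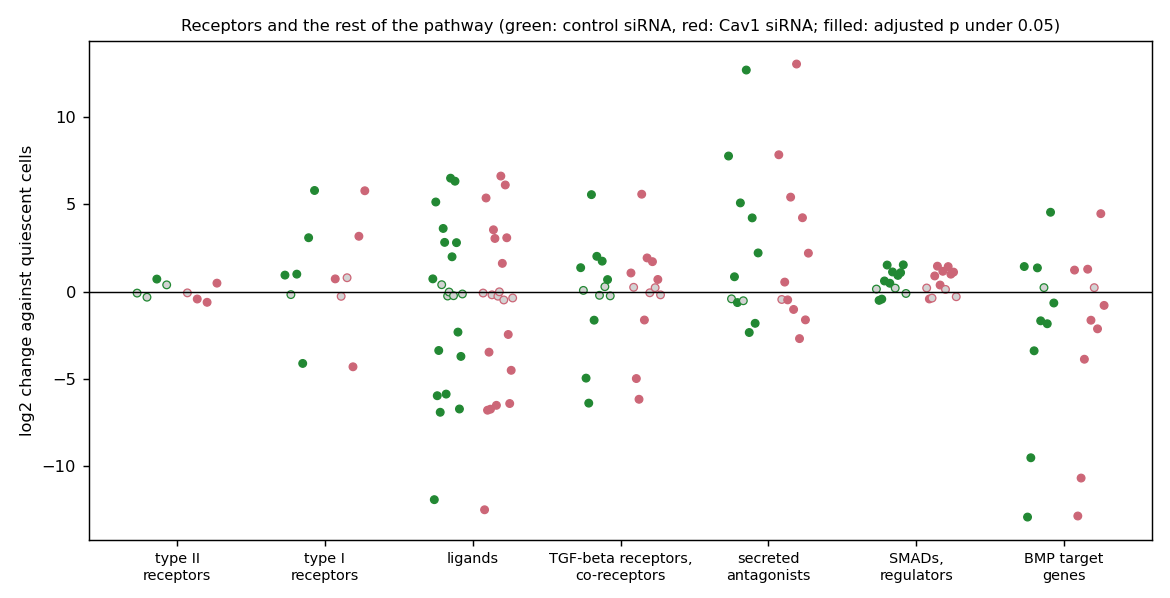
Change in log2 signal against quiescent cells (vertical axis) for the receptors and the 66 measured pathway genes by list, in control-siRNA cells (green) and Cav1-siRNA cells (red). Each point is 1 gene and filled points passed an adjusted p under 0.05. The largest values belong to genes below background in 1 of the groups, such as Grem1, Bmp2 and Hamp, whose plotted size is not a measured size. Both colours share the quiescent arrays.

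The label of the quiescent cells was checked against markers. Of 11 measured stellate cell markers, 3 were called higher and 4 lower with the control siRNA (42.1% and 26.0% of all genes). Their median change was +0.01 with the control siRNA and -0.41 with the Cav1 siRNA, against +0.32 and +0.27 over all genes. Lrat, the retinol-esterifying enzyme of quiescent stellate cells, was above background on the 3 quiescent arrays and on no activated array, at least 104-fold lower in control-siRNA cells. Reln changed by +0.01, Acta2 rose by 8.37 and Col1a1 by 5.89 on activation. The quiescent arrays also carried markers of other cells, with group means of +8.44 for the hepatocyte gene Serpina1c, +6.33 for the macrophage gene Cd5l and +7.71 for the sinusoidal endothelial gene Clec4g. Probes above background made up 51.5 to 69.0% over the 9 arrays, and quiescent array 2 had the fewest.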

How the data were processed

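Agilent Feature Extraction 10.7.1.1 read the 9 scans, as both the submitters' processing notes and the file headers state. What the authors deposited is the processed signal: a linear spot intensity, background-subtracted by the scanner software and not scaled between arrays, per the file headers. A deposited table of the series holds the same intensity per probe and served as an alternative. Coordinates in the deposited files are those of mm9.

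The deposited signals were put on the log2 scale and each array's 75th percentile over non-control spots was subtracted. Outlier spots were left out. The filter on dim probes asked for a share of 0.5 or more of a probe's spots well above background, on each of the 3 arrays of some group, which left 36817 probes, and the brightest kept probe stood for its gene. Probe names were updated through RefSeq accessions of the GRCm38.p6 gene list, used for names only (32994 probes matched by accession).

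The tests were two-sided limma fits (version 3.58.1, lmFit with eBayes, R 4.3.3) of the 3 group means on the 9 arrays, with Benjamini-Hochberg adjustment over 23965 genes and calls at an adjusted p under 0.05. Probes other than the brightest were tested in a fit of all 36817 kept probes. A gene below background in a group has a lower bound in place of a fold. It was set against each array's dimmest signal still called above background, or the gene's own where higher. Such bounds hold for the processed signals, and sizes under normexp can be smaller, as for Bmpr1b. Normexp used an offset of 50. The script was tested on simulated data. Figures used matplotlib 3.10.9.

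The arrays lay on 2 slides: slide 1 with the quiescent arrays and control-siRNA array 1, slide 2 with the rest. No slide held both quiescent and Cav1-siRNA arrays, so the slide as a block ties those groups only through the control-siRNA arrays. The number of arrays limits the precision, and dim probes are limited by background. Whether replicate numbers pair the samples is not known, and the main fit did not pair them. The members and gene lists were chosen with earlier results of these data known. Named genes are all members, Cav1, up to 4 called genes of largest change per pathway list with fixed SMAD, Id and TGF-beta receptor genes, stellate markers, the brightest markers of other cells, and the 5 genes most like Amhr2. Bmp10, Bmp8a, Gdf7, Chrdl2, Smad2, Osr2 and marker genes named for their state against background are outside that rule and were chosen after their values were seen. Alternatives covered scaling, background, filter, probe, samples in the fit, slide, pairing, array weights, prior and each array left out.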

Additional observations from a re-analysis of the deposited data

Results flagged for a closer look

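For 4 of the genes named above, every control-siRNA array lay above and every Cav1-siRNA array below all quiescent arrays. Of all 23965 genes tested, 5 (0.0209%) had this order. The genes other than Amhr2 were picked for their likeness to it, so sharing its order is no separate result. Before scaling, the quiescent and Cav1-siRNA arrays of Amhr2 overlapped. The difference of Cav1-siRNA minus control-siRNA means was -1.33 for Amhr2, -1.16 for Nprl3, -0.89 for Gpalpp1 and -0.66 for Fbxo2 on the log2 scale. This difference between the activated groups was not tested for these genes, since Amhr2 was picked for it and the other genes for their likeness to Amhr2.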

How the results depend on the processing

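Over 25 alternatives, Bmpr1a, Bmpr1b and Acvrl1 kept their direction and their call against quiescent cells wherever they could be tested, with smaller sizes for Bmpr1b and Acvrl1 under normexp. The Amhr2 difference between the siRNA groups was -0.74 under normexp with the 75th percentile, -0.67 under normexp with quantile normalization, -1.12 as the mean of its probes and -0.91 by probe 2, and -1.39 to -1.22 leaving out each array in turn; the cause of these shifts was not tested. Called receptors against quiescent cells with the Cav1 siRNA numbered 4 under normexp with quantile normalization (15894 of 23965 genes). They numbered 3 with the slide as a block (10141 of 23965 genes). Requiring a log2 change of at least 1 left 3, for which no share over all genes is given. Leaving out each array gave 4 to 7, the fewest without si-cav replicate 2 (14830 of 24063 genes). With the control siRNA, called receptors numbered 5 with the slide as a block (12559 of 23965 genes) and 5 to 6 leaving out each array. Calls within slide 1 are not counted, since it held a single control-siRNA array. Called pathway genes with the Cav1 siRNA numbered 33 among the 46 above background on all 9 arrays (11898 of 16819 genes). Between the siRNA groups, 3 were called with array weights (656 of 23965 genes). With the replicate block, 6 and 5 receptors and 50 and 47 pathway genes were called with the control and Cav1 siRNA. Whole arrays of different groups correlated at 0.705 to 0.996. With group means removed, same-numbered samples correlated at -0.114 to 0.173. With 3 arrays a group and the control-siRNA arrays split over 2 slides, this cannot settle whether the numbers pair the samples.

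Changes that turned sign were mostly small and not called. Against quiescent cells with the control siRNA, Acvr2a became 0.063 under median scaling, 0.020 under normexp with quantile normalization, 0.018 by probe 2, 0.099 with array weights and -0.317 to 0.109 leaving out each array. With the Cav1 siRNA it became 0.186 under median scaling, 0.025 under quantile normalization, 0.079 under normexp with quantile normalization, 0.097 by probe 2, 0.013 as the mean of probes, 0.134 with array weights and -0.304 to 0.122 leaving out each array. Acvr1b became 0.027 by probe 2 and 0.084 with the slide as a block or within slide 1, and with the Cav1 siRNA 0.123 by probe 2 and 0.112 with the slide as a block. Bmpr2 was -1.62 and -1.44 by probe 3, and Acvr1c -0.38 and -0.43 under normexp with the 75th percentile, with the control and Cav1 siRNA, each called. Between the siRNA groups, Acvr1b became 0.012 under median scaling, 0.096 by probe 2, 0.028 with the slide as a block or within slide 2, 0.0034 with array weights and -0.163 to 0.028 leaving out each array. Bmpr1b became 0.095 under median scaling, 0.018 under quantile normalization, 0.015 with the slide as a block or within slide 2, 0.057 with array weights and -0.074 to 0.033 leaving out each array. Acvr2b became 0.0060 under median scaling, Acvrl1 0.886 by probe 2 and 0.347 as the mean of probes, Bmpr1a -0.011 by probe 2, and Bmpr2 -0.308 by probe 2 and -0.0073 as the mean of probes. Leaving out each array gave -0.386 to 0.093 for Acvr1c and -0.026 to 0.079 for Acvr2a. Causes of these turns were not tested.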
